A study of Mus musculus with 6 samples.

Results

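The genes of the cytosolic ribosomal proteins are the protein parts list of the ribosome, and they were examined here for 5-hydroxymethylcytosine (5hmC), the base that TET enzymes make by oxidising 5-methylcytosine. Members were the protein-coding genes of the RefSeq table of GRCm38 whose symbol is Rpl or Rps, a number and at most 1 letter. There were 77 of them among 21887 protein-coding genes, 47 of the large subunit (Rpl) and 30 of the small subunit (Rps). The symbol rule also took in paralogs such as Rpl3l, Rpl10l, Rpl39l and Rps27l, and left out Rplp0, Rpsa, Fau and others, which are described apart.

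Ribosomal proteins are made in equal amounts and at very high rates in growing cells, and their genes are short, start in CpG-rich promoters and often begin transcription in a run of pyrimidines, the mark of the TOP mRNAs that mTOR signalling controls. In blood, the loss of 1 copy of several of them, Rps19 among others, causes Diamond-Blackfan anaemia, and Rps14 is a gene of the 5q- syndrome. In many cell types 5hmC is found in gene bodies and beside enhancers, while active CpG-island promoters tend to have little of it.

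DNA of mouse C57BL/6 bone marrow cells was studied, which had been enriched for Kit, transduced with the retrovirus MigR1-AE-IRES-GFP and so carried AML1-ETO, the fusion protein of a leukaemia translocation. All cells were Tet2fl/fl with CreER. Those called KO (Tet2-/- in the labels, 2 libraries) had been given 200 nM 4-hydroxytamoxifen for 4 days to excise Tet2, and those called flox (Tet2fl/fl, 2 libraries) had been given ethanol. The sort kept cells with GFP and CD16/32 and without CD11b and Gr1, taken as immature myeloid cells, with passage 5 given in the labels. DNA fragments were pulled down with a 5hmC antibody and sequenced. An IgG control and an input, 1 sample each of 6 in all, were not analysed here. The drug was given only to KO cells, so its effects cannot be told apart from the loss of Tet2, and nothing says that replicates were separate cultures, so p-values measure the spread between these libraries, which may be technical. Peaks do not measure RNA, so the sorted cell type was not checked against markers, and in bulk DNA the share of cells with 5hmC and its level per cell cannot be told apart. The 4 peak lists held 116539 to 122101 peaks covering 110.3 to 113.3 Mb, and the number of reads behind each was unknown.

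To show what kind of DNA these values concern, 6 promoters are printed, each 120 bases before to 10 bases from the listed transcription start, on the strand of the gene, from RefSeq (GRCm38.p6). Capitals mark CG pairs, the sites where mammalian DNA is mostly methylated and oxidised. Rpl27 is shown as the only member with called 5hmC at its promoter (chr11:101442125-101442254), Rpl31 (chr1:39367731-39367860), Rpl38 (chr11:114668460-114668589) and Rpl19 (chr11:98026590-98026719) because 5hmC was called upstream of them, Rpl34 (chr3:130730389-130730518, minus strand) because it was called in the gene in 1 library, and Rpl3l (chr17:24727706-24727835) because its promoter is poor in CG pairs and its gene body had 5hmC.
Rpl27: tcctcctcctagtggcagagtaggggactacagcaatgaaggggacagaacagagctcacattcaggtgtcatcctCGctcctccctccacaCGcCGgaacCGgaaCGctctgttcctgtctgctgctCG
Rpl31: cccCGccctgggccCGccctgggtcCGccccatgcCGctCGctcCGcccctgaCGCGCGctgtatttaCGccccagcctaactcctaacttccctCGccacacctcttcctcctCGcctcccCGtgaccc
Rpl38: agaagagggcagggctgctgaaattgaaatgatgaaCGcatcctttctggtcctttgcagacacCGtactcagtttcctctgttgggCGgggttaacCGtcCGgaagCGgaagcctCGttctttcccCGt
Rpl19: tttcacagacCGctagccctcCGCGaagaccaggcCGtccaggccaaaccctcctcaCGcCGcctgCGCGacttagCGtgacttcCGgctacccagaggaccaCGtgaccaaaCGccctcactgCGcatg
Rpl34: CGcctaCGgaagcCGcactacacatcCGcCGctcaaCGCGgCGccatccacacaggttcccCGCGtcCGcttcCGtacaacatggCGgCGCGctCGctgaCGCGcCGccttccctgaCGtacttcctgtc
Rpl3l: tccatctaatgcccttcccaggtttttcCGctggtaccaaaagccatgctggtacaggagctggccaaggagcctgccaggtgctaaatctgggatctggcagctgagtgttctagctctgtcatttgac

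Of the 77 members, 58 had a listed promoter, taken from 250 bases before to 50 bases after the start. Their promoters were rich in CG pairs, with a median of 21 in 300 bases against 13 over 17492 protein-coding genes with a listed promoter. Rpl3l had the fewest with 2, while Rpl34 had 31 and Rpl9 the most with 35. An unbroken run of at least 5 pyrimidines held the first transcribed base in 18 of 58 members (31.0%) and in 8.60% of all genes. A called base lay in the promoter window of 1 member (1.72%), Rpl27, in 3 of its 4 libraries, and in 13.0% of all genes in at least 1 library. Among promoters with at least 20 CG pairs, 14.9% of all 6309 genes and 0 of 32 members had a called base. These are descriptions of lists, with no test.

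The bodies of ribosomal protein genes were almost free of called 5hmC in both genotypes. A called base in the gene span was found for 4 and 5 of 77 members in flox replicates 1 and 2, and for 4 and 3 in KO replicates 1 and 2 (3.90% to 6.49%), against 51.3% to 52.9% of all protein-coding genes. Members are short, with a median span of 3164 bp against 17169 bp, so genes of the same length class are the closer background. Between 2.5 and 5 kb, 2.27% to 6.82% of 44 members had a called base in their span, and 19.1% to 20.6% of all 2042 genes of that length. Under 2.5 kb it was 0 of 20 members in every library and 4.68% to 5.31% of 2992 genes. With so few members, 0 lies close to these shares. From 5 to 10 kb a called base was found in 2 of 12 members (16.7%) in each library and in 31.5% to 34.4% of 2891 genes. Within the classes lengths still differed. Median spans of members and of all genes were 3249.5 and 3760.5 bp from 2.5 to 5 kb. They were 5720 and 7247 bp from 5 to 10 kb, and 1831 and 975 bp under 2.5 kb. With peaks of a score of at least 100 alone, the class from 2.5 to 5 kb had 0.0% to 2.27% of members and 9.55% to 11.3% of all its genes.

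**Figure D1:**
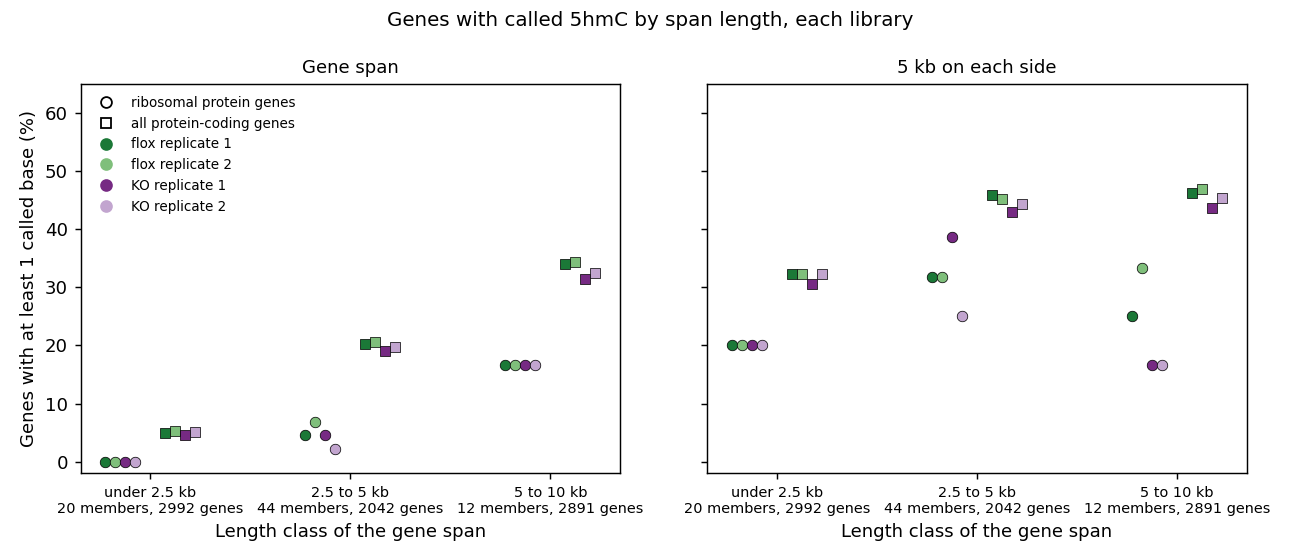
Share of genes with at least 1 called base (vertical axis, percent) by length class of the gene span, in the span (left) and in the 5 kb on each side (right). Circles are ribosomal protein genes, squares all protein-coding genes, and colours the 4 libraries. In the spans the circles lie below the squares in each class and library, from 0 of 20 members under 2.5 kb to 16.7% of 12 members from 5 to 10 kb. Under 2.5 kb, 0 of 20 lies close to the share of all genes.

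Read along the strand, the empty stretch began just before the transcription start and ended past the gene. In the first 1 kb after the listed start of the 58 members, 0.0% to 0.743% of bases were under a peak in the 4 libraries, and from 1 to 5 kb 1.01% to 1.59%. In the 7194 genes with a span under 12 kb and a listed start, these shares were 4.67% to 5.37% and 4.31% to 4.79%. In the 1 kb before the start, members had 0.578% to 1.57% and genes under 12 kb 4.79% to 5.38%. From 5 to 1 kb before the start the members reached 4.09% to 4.88%, close to the 4.72% to 5.07% of genes under 12 kb, and from 10 to 5 kb before it 6.35% to 7.59%, above 4.99% to 5.36%. Beyond the gene, from 10 to 20 kb, members stood at 5.90% to 7.86% and genes under 12 kb at 4.76% to 5.05%. The dip was seen in all 4 libraries, and its windows were set after a first look at the profile.

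**Figure D2:**
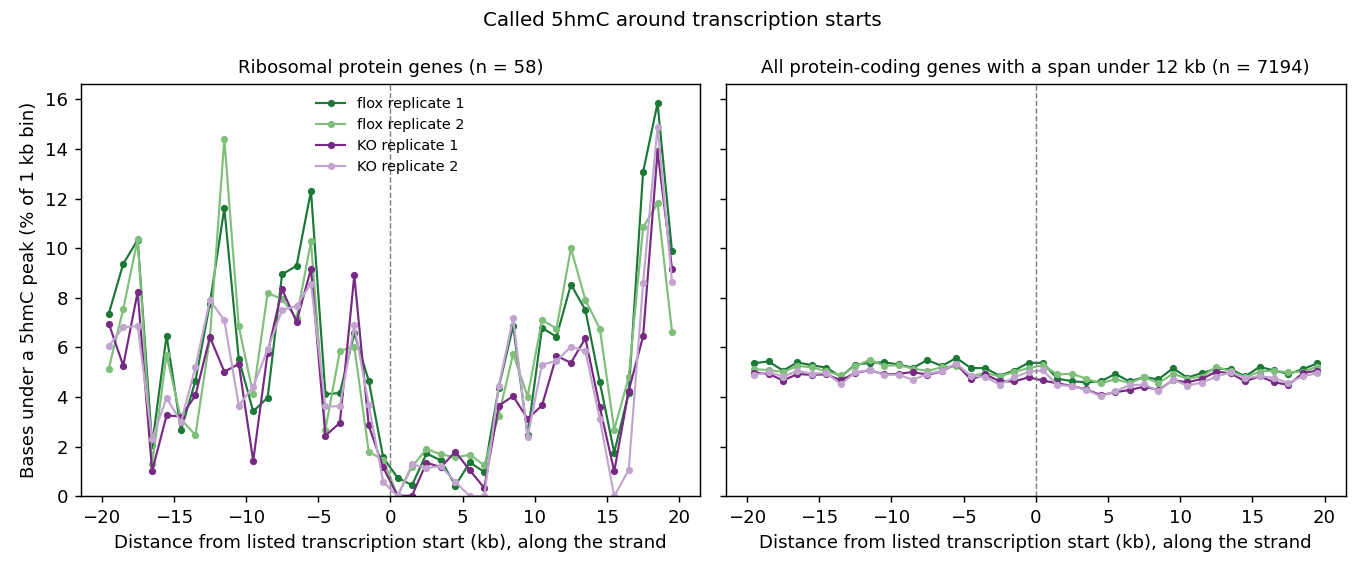
Percent of bases under a 5hmC peak (vertical axis) in 1 kb bins by distance from the listed transcription start along the strand (horizontal axis, kb), for 58 ribosomal protein genes (left) and 7194 protein-coding genes with a span under 12 kb (right). Each line is 1 library. In the left panel all 4 lines fall to 0.743% or less in the first 1 kb after the start and are uneven elsewhere, since 58 genes fill each bin. In the right panel they stay near 5%.

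Only 6 members had any called base in their span, and in Rpl19 and Rpl27 it lay before or across the listed start. Rpl19, Rpl3l and Rpl36 passed the filter of the fit described further on. Rpl27, Rpl34 and Rps7 did not, and these 3 are named after their values were seen. In Rpl19, a gene of the large subunit (chromosome 11, 98022003 to 98030493), the RefSeq span starts well before the listed start, and both of its regions lie there. The first (98021292 to 98022639) overlaps the calcium channel gene Cacnb1 and was called in all 4 libraries, 5418 to 4071 bases before the listed start. The second (98024100 to 98025131), 2610 to 1579 bases before it, was called in KO alone, with scores of 54.1 and 62.37 where the lowest score of a list is 50. In Rpl27 (chromosome 11, 101442245 to 101445596) 1 region reached from 673 bases before to 430 bases after the start, and held 431 and 10 bp of the span in flox and 9 and 0 bp in KO.

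Regions of the span that lay wholly past the listed start were found in Rpl3l, Rpl34 and Rps7. For Rpl36 no start was listed. Rpl3l (chromosome 17, 24727826 to 24736143), the paralog of Rpl3 used in striated muscle, had the most, with 2516 and 1499 bp in the flox and 2212 and 0 bp in KO replicates 1 and 2. Its regions lay 1741 to 6531 bases past the start. Rpl36 (chromosome 17, 56610094 to 56614246) was the other member called in all 4 libraries, with 1383 and 967 bp in the flox and 1104 and 931 bp in the KO libraries, and scores of 66 to 137.71. Rpl34 (chromosome 3, 130726827 to 130730398) had 1119 bp in flox replicate 2 alone, and Rps7 (chromosome 12, 28630847 to 28635953), whose product can bind Mdm2, had 905 bp in KO replicate 2 alone. Rps7 was thus the only one of 30 small-subunit genes with a called base in its span, in 1 library and with a score of 65.18. Near-identical copies limit this reading: the table lists 318 pseudogenes of these proteins, and the sources used here do not say how reads that match several places were treated. Of these pseudogenes 2.83% to 3.77% held a called base, and 7.66% to 8.14% of the 10111 other pseudogenes, which are longer (median 943 against 531 bp). The part of such reads in the empty spans was not tested.

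Beside the genes, in the 5 kb on each side, 5hmC was common but less so than elsewhere. A called base was found there for 22 and 23 members in flox and 24 and 18 in KO (23.4% to 31.2%), against 42.0% to 44.0% of all genes. In at least 1 library 35 members had one (45.5%, against 57.1% of all genes), and in all 4 libraries 12 had one (15.6%, against 30.1%). No call in span or sides in any library was found for 39 of 77 members and for 5009 of all 21887 genes, most of them longer. Among genes under 2.5 kb it was 13 of 20 members and 1657 of 2992 genes. From 2.5 to 5 kb it was 21 of 44 members and 759 of 2042 genes, and from 5 to 10 kb 5 of 12 and 867 of 2891. The nearest called base was a median of 6442 and 6891 bp away in flox and 7677 and 7215 bp in KO, and 0 bp over all genes, most of which hold a call. Among all genes from 2.5 to 5 kb the medians were 4794.5 to 5438 bp, and for the 44 members of that length 6281.5 to 7319 bp, while under 2.5 kb members were the closer, at 7246.5 to 10014.5 bp against 10671.5 to 11438 bp. Upstream and downstream sides differed among the 58 members with a strand: 10 to 15 of them (17.2% to 25.9%) had a called base in the 5 kb upstream and 4 to 7 (6.90% to 12.1%) downstream. Over 17492 genes these shares were 26.6% to 28.2% and 22.3% to 23.8%. In the 7194 genes with a span under 12 kb they were 23.8% to 25.5% and 21.8% to 23.8%. Beside these shorter genes, the upstream shares of members spanned the range, and only their downstream shares lay below it. Other protein-coding genes reach into the 5 kb sides of 56 members, and 17 of the 48 regions at members overlap such a gene.

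The longest stretch lay upstream of Rpl38, a large-subunit gene known for its part in the translation of Hox mRNAs. Its sides held 1903 and 2401 bp in the flox and 1586 and 1956 bp in the KO libraries, all in 1 region 434 bp from the span (114664895 to 114667384 on chromosome 11), and the groups overlapped. At Rps15a the sides held 1034 and 1337 bp in the flox and 1285 and 1579 bp in the KO libraries. They came from 2 regions, and neither was called in all 4 libraries. Rps27, which carries a zinc finger, had 1145 and 1229 bp in the flox and 1182 and 742 bp in the KO libraries, from 2 regions inside the neighbouring gene Rab13. In these 3 genes the flox and KO values overlapped. The peaks at members were weaker than the rest by the authors' scores: their medians were 75.3 and 83.9 in flox and 77.4 and 88 in KO, against 93.4 to 96.6 over the whole lists.

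**Figure D3:**
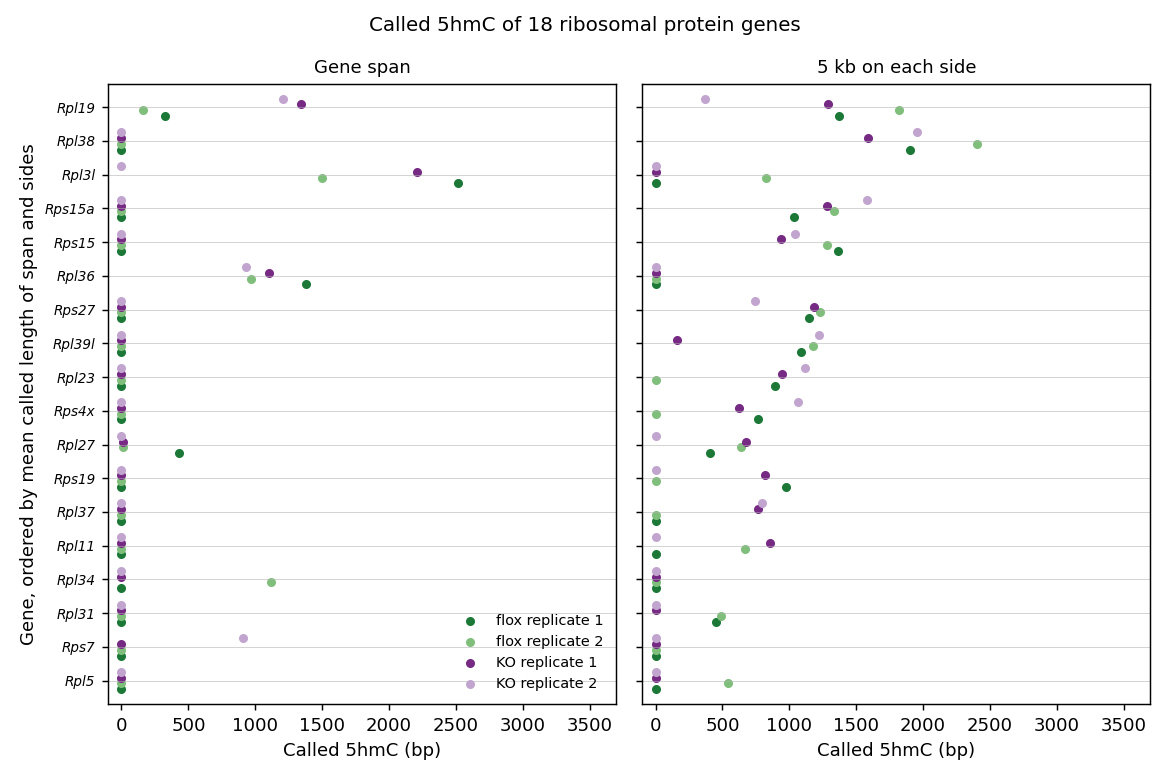
Called 5hmC in bp (horizontal axis) in the gene span (left) and in the 5 kb on each side (right) for the 18 ribosomal protein genes described by name, of 38 with any, ordered by their mean. Each point is 1 library, coloured by group and replicate. Most points in the left panel lie at 0, Rpl3l reaches 2516 bp, and Rpl38 leads the right panel with 1586 to 2401 bp.

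Among genes of blood disease, Rps19, mutated in Diamond-Blackfan anaemia, had no called base in its span (chromosome 7, 24884592 to 24889811). A region 1854 bp upstream was called in flox replicate 1 (977 bp) and KO replicate 1 (817 bp) and in neither of the replicates 2. Rpl5, which with Rpl11 and 5S rRNA holds Mdm2 in check, had 543 bp on its sides in flox replicate 2 alone. Rpl11 had 671 bp in flox replicate 2 and 852 bp in KO replicate 1. Of the 19 members listed as genes of this anaemia, 2 had a called base in the span in any library and 8 on the sides (42.1%). Of all 77 members it was 6 (7.79%) and 35 (45.5%) and of all genes 61.0% and 57.1%. In these 3 genes no region was called in both libraries of 1 genotype and in neither of the other.

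The comparison of KO with flox asks whether loss of Tet2, one of the enzymes that make 5hmC, moves it at these genes. No member passed the test. Called length, brought to a common library total, was fitted as log2(bp + 500) over all genes whose mean reached 500 bp, a scale on which changes of genes with little called length are understated. In the spans, 3 members were among the 10710 genes tested, and in the sides 14 members among 7863. Limma called 0 genes at an adjusted p under 0.05 in either interval (0.0% of genes in each), and at an unadjusted p under 0.05 it called 690 in the spans (6.44%) and 394 in the sides (5.01%). Of the members, 1 of 3 in the spans and 0 of 14 in the sides were at an unadjusted p under 0.05. The median log2 difference in the sides was -0.21 over the 14 members, with 9 lower and 5 higher in KO. Over all 7863 genes tested it was -0.02, with 4127 lower and 3736 higher.

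Rpl19 had the smallest p of all members. Its span passed the filter of 500 bp only through the KO libraries, with a mean of 1273 bp against 243.5 bp in flox. Its span held 324 and 163 bp in the flox and 1342 and 1204 bp in the KO libraries, so that both KO libraries lay above both flox libraries (log2 difference 1.27, SE 0.41, limma adjusted p = 0.766). Groups separated in this direction in 13.8% of all genes tested in the spans. Its sides went the other way, with 1370 and 1817 bp in the flox and 1292 and 371 bp in the KO libraries (-0.73, SE 0.41, limma adjusted p = 0.908). That difference was -0.20 without KO replicate 2. The span of Rpl3l differed by -1.06 (SE 0.84, limma adjusted p = 0.847), and by 0.16 without KO replicate 2, which had no call there. At Rpl36 the difference was -0.12 (SE 0.26, limma adjusted p = 0.949) and 0.04 without flox replicate 1.

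On the sides, the groups did not overlap in 5 of 14 members tested. Both KO libraries were below both flox libraries in 4 (19.5% of all genes tested), and above them in 1, Rpl23 (14.3% of all genes tested). With 14 members, counts of 4 and 1 lie close to these background shares. Rps15, a small-subunit gene, had 1362 and 1279 bp in the flox and 936 and 1039 bp in the KO libraries (-0.28, SE 0.16, limma adjusted p = 0.908). With peaks of a score of at least 100 alone it turned to 0.87. Rpl23, another protein that binds Mdm2, had 895 and 0 bp in the flox and 944 and 1117 bp in the KO libraries (0.88, SE 0.60, and 0.15 without flox replicate 2). Rps4x, the X-linked form of the small-subunit protein, had 764 and 0 bp in the flox and 623 and 1066 bp in the KO libraries (0.75, SE 0.63, and 0.09 without flox replicate 2). Rpl39l, a paralog used in male germ cells, had 1086 and 1179 bp in the flox and 162 and 1219 bp in the KO libraries (-0.61, SE 0.52, and 0.08 without KO replicate 1). The limma adjusted p was 0.908 for each of these 4 members. Among them, Rpl23 (mean 447.5 bp in flox, 1030.5 bp in KO) and Rps4x (382 and 844.5 bp) passed the filter of 500 bp only through KO.

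**Figure D4:**
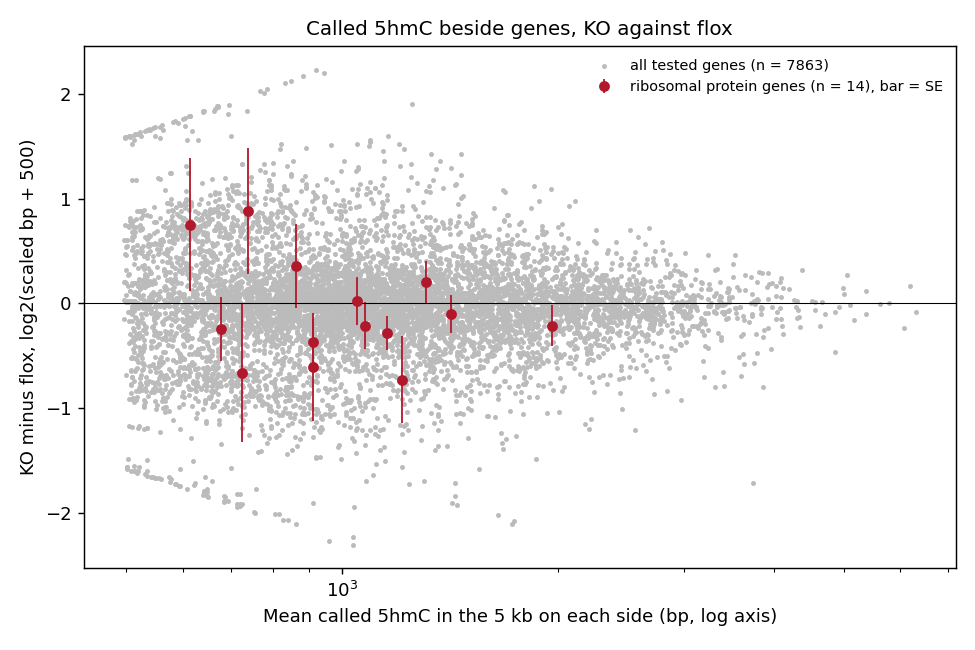
Difference between KO and flox in log2(scaled bp + 500) (vertical axis) against mean called 5hmC in the 5 kb on each side (horizontal axis, bp, log scale) for 7863 protein-coding genes (grey) and the 14 tested ribosomal protein genes (red, bars are SE). The red points lie between -0.73 and 0.88, within the spread of the grey ones.

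Regions called in both libraries of 1 genotype and in neither of the other were as few at members as elsewhere. Of 48 regions, 15 (31.2%) were called in all 4 libraries, 2 in flox alone and 2 in KO alone (4.17% each), beside 39.5%, 2.96% and 3.00% of all 174070 regions. The flox regions lay 788 bp upstream of Rpl31 (chromosome 1, 39366578 to 39367063, 453 and 486 bp, scores 136.35 and 65.26) and 4473 bp upstream of Rps15, inside the gene Dazap1 (chromosome 10, 80286866 to 80287958, scores 62.03 and 64.52). The KO regions were the one in the span of Rpl19 and one 2295 bp upstream of Rpl37, inside Card6 (chromosome 15, 5113521 to 5114318, 768 and 798 bp, scores 63.71 and 63.05). Apart from 1 peak at Rpl31, these scores were below the median of their lists. With peaks of a score of at least 100 alone, the regions of 1 genotype at Rpl31, Rps15, Rpl19 and Rpl37 no longer had peaks in a pair of libraries. The 1 region that then counted as flox alone lay beside Rpl17, named after its values were seen, and 0 counted as KO alone. With every peak it was called in all 4 libraries, and its scores were 142.65 and 147.93 for the flox libraries but 82.5 and 95.33 for KO.

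Summed over all 77 spans, 4654 and 3758 bp were called in flox and 4667 and 3040 bp in KO, and the groups overlapped. The log2 ratio of KO over flox was -0.13, and it turned to 0.036 without flox replicate 1 and 0.15 without KO replicate 2. Summed over the sides, it was 21500 and 21452 bp in the flox and 19366 and 16996 bp in the KO libraries (log2 of KO over flox -0.24). Over all protein-coding genes the summed sides were lower in KO too, by a smaller share, with 10622426 and 10680727 bp against 11349725 and 11101111 bp. KO replicate 2 was the lowest library in both sums, and without it the ratio in the sides was -0.15. Sums over chosen genes were given no test.

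The other genes of the ribosome and of translation were counted in the same way. Of 11 ribosome genes outside the symbol pattern, such as Rplp0 and Rpsa, 0 had a called base in the span in any library and 5 (45.5%) on the sides. Their median span was 2155 bp, and of all 2992 genes under 2.5 kb these shares were 8.19% and 44.0%. With 11 genes, both counts lie close to those shares. The 78 genes of mitochondrial ribosomal proteins, which make a separate ribosome, had one in the span in 25.6% to 28.2% of cases, against 31.5% to 34.4% of all genes from 5 to 10 kb, the class of their median span of 7690.5 bp. Of their 14 members tested in the spans, 10 were lower and 4 higher in KO, 0 passed limma's test and 3 were at an unadjusted p under 0.05. Of all 10710 genes tested there, 5800 were lower and 4910 higher, and 690 (6.44%) were at an unadjusted p under 0.05 in limma. With 14 genes these counts are small, and they were given no test as a set. Mrps6 had 1672 and 1712 bp in the flox and 797 and 534 bp in the KO libraries (-0.91, SE 0.26). Mrps35 had 1500 and 2773 bp in the flox and 817 and 812 bp in the KO libraries (-0.95, SE 0.33). For both the groups did not overlap, as in 22.2% of all genes tested in this direction, and the limma adjusted p was 0.766.

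Of 32 ribosome assembly genes (median span 12516.5 bp) 37.5% to 40.6% had a called base in the span, and of 33 translation factors (17372 bp) 18.2% to 21.2%. Of all 3923 genes from 10 to 20 kb, 48.0% to 51.4% had one. Per kb of span, called length was 10.96 to 15.3 bp in translation factors and 10.9 to 16.7 bp in the ribosomal protein genes. It was 20.9 to 31.6 bp in assembly genes, 21.7 to 31.4 bp in mitochondrial ribosomal protein genes and 43.0 to 45.3 bp over all genes. The value of the ribosomal protein genes rests on few of them. Rpl3l alone held 2516 of 4654 and 1499 of 3758 bp in the flox libraries. In the KO libraries it held 2212 of 4667 and 0 of 3040 bp. The 30 small-subunit genes had 0.0 to 8.76 bp per kb. None of the 11 assembly genes and 6 translation factors tested passed limma's test, and 0 were at an unadjusted p under 0.05. Mdn1, an ATPase of large-subunit assembly, had 2678 and 1279 bp in the flox and 1018 and 918 bp in the KO libraries (-0.69, SE 0.34). Ncl, which encodes nucleolin, had 2471 and 1437 bp in the flox and 605 and 1393 bp in the KO libraries (-0.72, SE 0.38). The initiation factor gene Eif3h had 2700 and 1890 bp in the flox and 1534 and 1454 bp in the KO libraries (-0.46, SE 0.25), and Eif5a had 1069 and 1016 bp in the flox and 1408 and 1413 bp in the KO libraries (0.32, SE 0.23). The limma adjusted p of these 4 genes was 0.807 to 0.840.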

How the data were processed

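Per the labels, 4 libraries of 5hmC immunoprecipitation (fragments of 200 to 500 bp, 14 PCR cycles, lane 3) had peak lists. Groups and replicate numbers came from sample titles. CASAVA 1.8, MACS 1.4, Bowtie and the build GRCm38 (mm10) are listed, per the submitters' processing notes, with no roles. Neither settings nor control library were given in the sources used here. The deposited score of each peak, a multiple of the log10 of the deposited p-value, is the authors' own value within its library and was used only to describe or filter peaks. Start and end were used as deposited.

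Called length is the number of bases under peaks. The 5 kb sides leave out the span. RefSeq spans give no exons. Strand and starts came from the promoter table, with the most upstream listed start per gene. Of 58 member starts, 51 lay within 100 bp of a span end. Peaks sharing 1 bp or more were merged to regions. Limma 3.58.1 (R 4.3.3, trend and robust, Benjamini-Hochberg adjustment, all protein-coding genes) was checked on simulated data. The planted shifts were larger than the differences given here for members, so the check does not show that changes of their size would be found. Python 3.11.15 with pandas 2.3.3, numpy 2.4.6 and matplotlib 3.10.9 was used. With 2 libraries a group, the spread is known poorly.

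Named with values were members called in all 4 libraries in the span, the 6 longest in the sides, those with a region of 1 genotype, the 6 smallest p in each fit, Rps19, Rpl5 and Rpl11, and 2 genes of each companion list, except some items that are not reported here. Members and lists were chosen with earlier results of these data known. Alternatives were other peak sets, pseudocounts, filters, scaling, side widths, overlap rules, peak numbers, the replicate number as a block, and leaving out single libraries.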

Additional observations from a re-analysis of the deposited data

How the results depend on the processing

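Limma called 0 genes in both intervals in each of the 14 alternatives for the spans and 17 for the sides, where 455 to 914 and 171 to 751 genes were at an unadjusted p under 0.05. The replicate block also gave 0 calls (620 and 364 genes at an unadjusted p under 0.05). Whether same-numbered libraries belong together is not in the labels. Their deviations correlated at 0.0022 in the spans and 0.0123 in the sides across genes, which cannot show how the cultures were split. A named gene that missed the filter under a setting gave no difference there. For this reason the spans of Rpl19, Rpl3l and Rpl36 were not refitted with scores of at least 100 or with the 50000 highest scored peaks. No call could change, since 0 genes were called in every setting. Of the 192 differences of named genes that could be recomputed, 184 kept direction and 8 turned sign. Beside leaving out a library, these were Eif3h (0.13 with scores of at least 100, 0.15 with the 50000 highest scored peaks), Rps15 (0.87 and 0.88) and Eif5a (-0.0053 by number of peaks). Leaving out 1 library gave -2.29 to 0.16 for Rpl3l, -0.29 to 0.043 for Rpl36 and -1.29 to 0.081 for Rpl39l. The causes were not tested, other than that fewer peaks or libraries enter.

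For log2 of KO over flox over all members, each library left out (added after seeing the data) gave -0.47 to 0.15 in the spans and -0.34 to -0.15 in the sides. It was -0.99 in the spans with scores of at least 100, and -0.38 in sides of 2 kb. The mean number of members with a called base, 4 in the spans and 21.75 in the sides, fell to 1 and 8.75 with scores of at least 100 and to 0.75 and 8 with the 50000 highest scored peaks, since fewer peaks enter. It was 9.5 for sides of 2 kb and 48.5 for sides of 10 kb. With either smaller peak set, 6 regions were called in all 4 libraries, 1 in flox alone and 0 in KO alone. Reads per library were unknown, so weak 5hmC in a span without a peak was not detectable here.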

Other observations

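Of the 77 members, 27 had at least 1 snoRNA gene inside their span, 54 such genes in all. Rpl4 held 5 of them, Rpl7a 4 and Rpl13a 4, and no called base lay in the spans of these 3 genes in any library. Chromosome 7 held 13 members, and none of these had a called base in the span. Only 6 of all 77 members (7.79%) had one in any library, so none among 3 or 13 lies close to that share. The members farthest from called 5hmC by the median over the 4 libraries were Rpl10 (59936 bp), Rpl36a (55040 bp), Rps27a (54461 bp) and Rps24 (38904 bp). Rpl10 and Rpl36a lie on the X chromosome. The value of Rpl36a lies between 106339 and 93010 bp in the flox and 17062 and 17070 bp in the KO libraries, so a peak far outside its sides was called in KO alone, which was given no test and was noticed in the data.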
